A study of Mus musculus with 12 samples.

Results

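Mouse embryonic fibroblasts (MEF) carry a set of genes whose signal was at least 2.83-fold lower after 4 days of reprogramming than in any untreated MEF. 112 genes of 19938 measured met the rule that the lowest of the 3 MEF arrays lay at least 1.5 log2 units above the higher of the 2 arrays of day 4. All 112 also passed the filter on dim genes, which left 13044 genes, so that 0.859% of the genes kept were members. The genes were chosen by their signal on these MEF and day 4 arrays, so every difference between MEF and day 4 is given below as a description, with no test. Contractile and other cytoskeletal genes, ligands and inhibitors of the TGF-beta family, growth factors, matrix proteins and receptors were among them.

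The series measured RNA on 12 Affymetrix arrays of mouse cells, 1 array for each genotype and stage. Its question was the role of Mbd3, part of the NuRD repressor complex, while fibroblasts are reprogrammed to pluripotency. Cells were Mbd3-/- (-/-, 2 arrays), Mbd3flox/- (a floxed and a deleted copy, 4 arrays) or Mbd3+/+ (WT, 6 arrays). The flox/- and WT MEF carried a doxycycline (DOX) inducible transgene for Oct4, Sox2, Klf4 and Myc (OSKM), while the label of the -/- MEF names no transgene. Untreated MEF gave -/-, flox/- and WT arrays, and day 4 of DOX gave flox/- and WT arrays. Later samples were flox/- day 8, WT day 8 and WT day 11 under DOX, flox/- and WT induced pluripotent stem cells (iPSC), and -/- and WT embryonic stem cells (ESC, the WT line V6.5). All labels state growth in ESC medium with inhibitors and LIF on irradiated DR4 feeder MEF, so feeder RNA may be in any sample. For WT day 8 and WT ESC, the labels point to arrays of an earlier series; the WT day 8 array is called day 8 in its title and 4 days in its source, and was taken as day 8. With 1 array per genotype and stage, genotype and culture cannot be told apart within a stage, and in bulk RNA fewer cells of a type and less RNA per cell cannot be told apart.

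MEF are mesenchymal cells that attach through integrins, pull on their matrix with actin and myosin fibres, and secrete collagens, proteoglycans and growth factors. Serum response factor (SRF) and the YAP and TEAD proteins switch on many contractile and adhesion genes in spread cells, and TGF-beta signalling through SMAD proteins sustains them. Under OSKM, fibroblasts pass through a mesenchymal-to-epithelial transition early on, before the pluripotency network is active.

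The labelled states were checked against marker genes. The mean log2 signal of 19 fibroblast markers was 11.22 to 11.54 in the 3 MEF arrays, 9.05 in flox/- and 10.73 in WT day 4 cells, 7.12 to 9.83 in the later DOX arrays and 7.22 to 9.13 in the pluripotent arrays. Pluripotency markers averaged 5.52 to 5.64 in MEF, 7.44 in flox/- and 6.47 in WT day 4 cells, and 10.89 to 11.21 in pluripotent cells. At day 8 they averaged 11.04 in flox/- cells, against 6.47 in WT cells, and they reached 10.33 at WT day 11. Macrophage genes averaged 6.09 in -/-, 7.95 in flox/- and 8.84 in WT MEF, and 0 of 35 were members. In day 4 cells they averaged 5.64 in flox/- and 7.34 in WT. The rule takes the lowest MEF value and -/- MEF had little signal for these genes, so the 0 says nothing of their change by day 4. Of the 19 fibroblast markers 0 were members. The collagen gene Col1a1, for example, was at 9.77 in flox/- and 11.98 in WT day 4 cells, against 12.51 to 12.91 in MEF. The targeted gene Mbd3 gave 8.11 in -/- MEF and 6.75 in -/- ESC, against 9.17 in WT MEF and 9.33 in WT ESC; where its probes lie relative to the deleted part was not analysed here.

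The median signal of the 112 genes was 9.92 in -/-, 9.79 in flox/- and 9.68 in WT MEF, 6.41 in flox/- day 4 and 7.34 in WT day 4 cells. The later DOX arrays had medians of 6.03 in flox/- day 8, 6.81 in WT day 8 and 7.08 in WT day 11 cells. Pluripotent cells had 6.02 in flox/- iPSC, 6.48 in WT iPSC, 6.33 in -/- ESC and 7.28 in WT ESC. Every array after MEF thus had a median at least 2 units below those of MEF, while the medians of all genes kept lay between 8.31 and 8.47 on the 12 arrays.

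**Figure D1:**
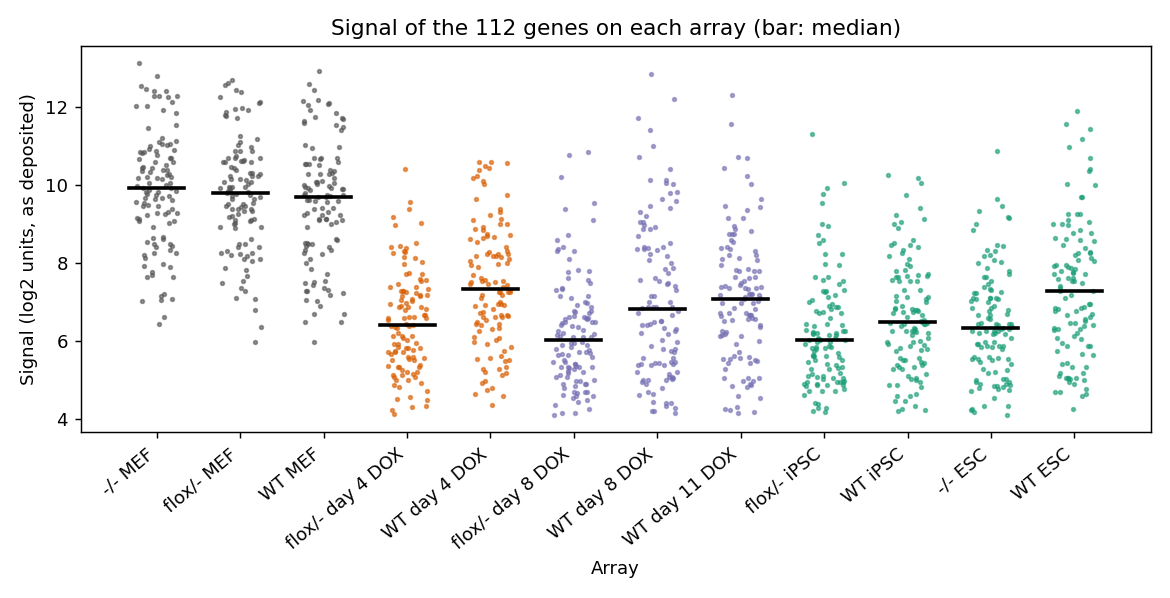
Signal in log2 units of the 112 genes on each of the 12 arrays, with 1 point per gene and a black bar at the median; MEF are grey, day 4 orange, later DOX purple and pluripotent cells green. The medians were 9.68 to 9.92 in MEF and 6.02 to 7.34 on the other arrays.

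The label of silencing fits only some of the genes. On both day 4 arrays 27 of the 112 lay below the median probe set of the array (6.26 to 6.38 units), below which signal is weak, 24 did so on 1 of the arrays, and 61 stayed above it on both. Ccn2 and Csrp1, for instance, still had 10.48 and 10.60 units at WT day 4. In the 4 pluripotent arrays 29 genes were below the median on every array and 36 on none. The set is therefore described here as genes that were lower at day 4, not as silent genes. Below, a gene is called raised on a later array where its signal was at least 2-fold (1 log2 unit) above the higher day 4 value, and it stayed low if it was raised on none of the 7 later arrays.

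At day 4 the flox/- array was lower than the WT array for 103 of the 112 genes, where 42.9% of all genes kept were lower. It was lower by at least 2-fold for 49, where 8.20% of all genes kept were that much lower. Both arrays entered the rule, so nothing further is read from these counts. No member was at least 2-fold higher in flox/- day 4 cells (background 4.84%). The median difference, flox/- minus WT, was -0.83 over the members and 0.08 over all genes kept. The widest differences were in Tgfb3 (-2.46), the sulphate-activating enzyme gene Papss2 (-2.43) and Svep1 (-2.38), and Dlk1 differed most the other way (0.79). The WT day 4 array therefore set the higher day 4 value for most members: the rule took in 131 genes if flox/- day 4 was left out and 762 if WT day 4 was left out. Fibroblast markers moved the same way between these arrays, as given above, and their part in the difference was not tested.

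The gap between the lowest MEF and the higher day 4 value had a median of 1.74 and reached 4.13; it was at least 2 units in 40 genes. Rgs4, a brake on G-protein signalling, had the widest gap, 4.13 units or 17.5-fold. It measured 5.21 in flox/- and 5.48 in WT day 4 cells, against 10.18 in -/-, 9.85 in flox/- and 9.62 in WT MEF. Later it gave 5.06 in flox/- day 8, 4.93 in WT day 8 and 4.98 in WT day 11 cells, and 4.86 in flox/- iPSC, 5.05 in WT iPSC, 5.29 in -/- ESC and 6.78 in WT ESC. All later arrays but WT ESC lay at or below the WT day 4 level. Its RefSeq promoter (chr1:169747593-169747892, GRCm38.p6, minus strand) is shown because the gene leads the set; capitals mark a TATAAA, the TATA box core, 31 bases before the start.
Rgs4: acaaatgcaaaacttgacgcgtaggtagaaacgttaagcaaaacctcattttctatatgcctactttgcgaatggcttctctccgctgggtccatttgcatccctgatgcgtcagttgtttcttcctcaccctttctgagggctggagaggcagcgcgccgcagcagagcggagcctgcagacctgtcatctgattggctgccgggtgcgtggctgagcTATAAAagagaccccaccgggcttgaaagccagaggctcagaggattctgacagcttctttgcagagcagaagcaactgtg

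**Figure D2:**
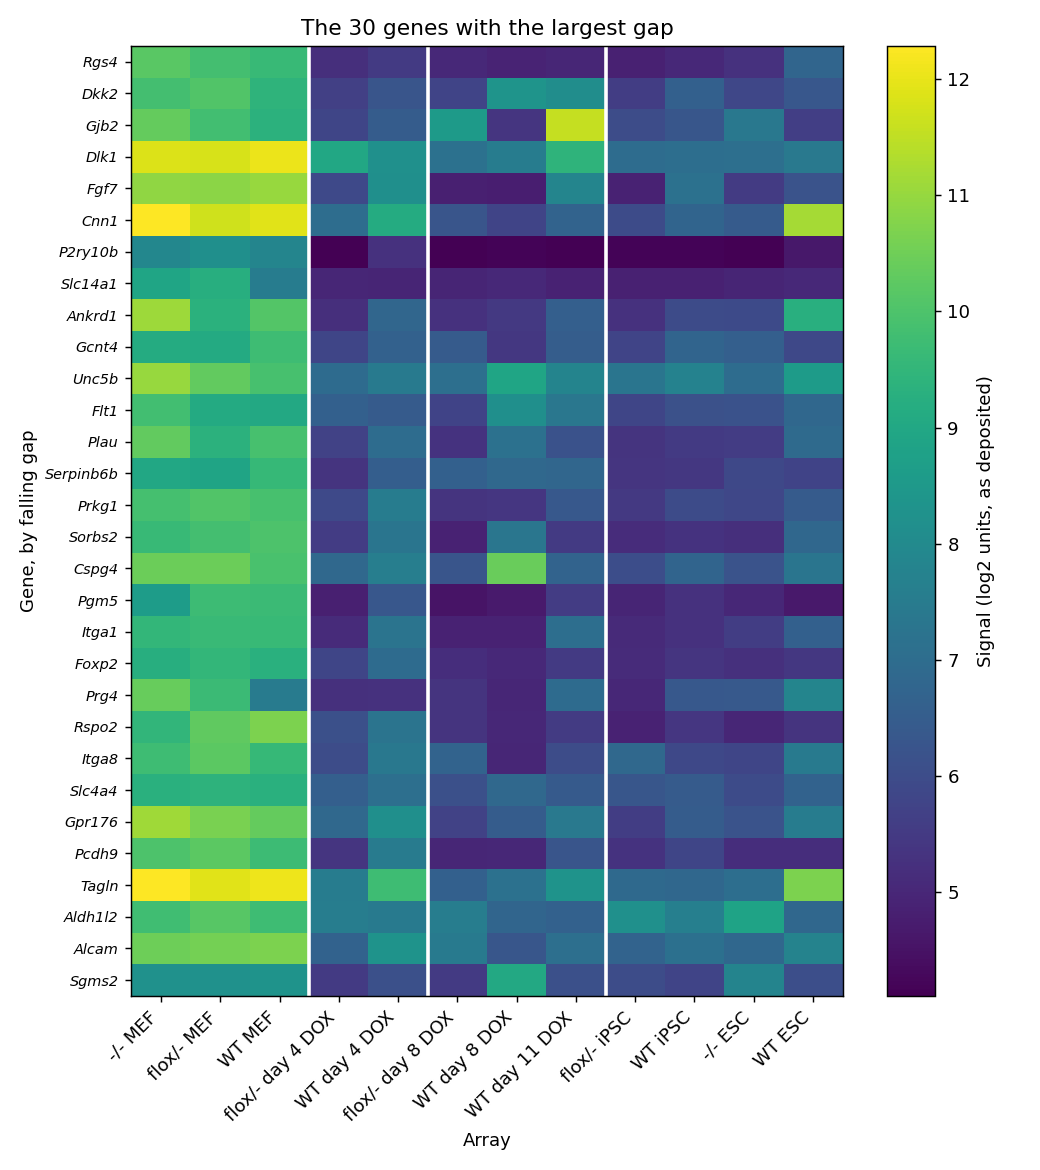
Signal in log2 units (colour) of the 30 genes with the largest gap between the lowest MEF and the higher day 4 value, on the 12 arrays in order of stage, with white lines between MEF, day 4, later DOX and pluripotent arrays. Gjb2 in WT day 11 (11.56), Cspg4 in WT day 8 (10.41) and Cnn1 in WT ESC (11.18) stand out from the low values after day 4.

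Contractile genes were the list with the largest share of members, 10 of 35 genes kept (28.6%, against 0.859% of all genes kept). Cartilage and bone markers came next, with 2 of 9 genes kept (22.2%). The lists were chosen with earlier results of these data known, so these shares are descriptions. The median gap of all 35 contractile genes was 0.92, against -0.35 over all genes kept. Cnn1, the actin-binding calponin of smooth muscle, measured 7.03 in flox/- and 9.13 in WT day 4 cells, against 12.27 in -/-, 11.71 in flox/- and 11.91 in WT MEF. Tagln, the related protein transgelin, measured 7.53 in flox/- and 9.75 in WT day 4 cells, against 12.29 in -/-, 11.93 in flox/- and 12.07 in WT MEF. Myh11, the smooth muscle myosin heavy chain, measured 5.58 in flox/- and 5.91 in WT day 4 cells, against 9.30 in -/-, 8.27 in flox/- and 7.99 in WT MEF. In each of the 3 the day 4 arrays lay below all MEF, by the rule, and the flox/- day 4 array was the lower. The other contractile members were the integrin gene Itga8, the skeletal actin gene Acta1, the actin nucleator gene Lmod1, the LIM-domain genes Fhl2 and Csrp1, the intermediate filament gene Des and the tropomyosin gene Tpm2.

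After day 4 the contractile genes differed in where they were raised. In WT day 8 cells Acta1 (10.03), Fhl2 (9.79), Tpm2 (9.80) and Csrp1 (12.20) were at least 2-fold above the higher day 4 value, while Cnn1 (5.79), Tagln (7.14), Myh11 (5.38), Lmod1 (6.41) and Des (5.20) were not. In WT ESC it was Cnn1 (11.18), Myh11 (7.73), Lmod1 (7.90) and Des (8.08) that were raised, together with Acta1 (8.78), which was thus raised on both arrays. Tagln reached 10.69 in WT ESC, against 6.89 in flox/- iPSC, 6.84 in WT iPSC and 7.06 in -/- ESC. Itga8 stayed low, at 6.71 in flox/- and 4.99 in WT day 8 cells. In flox/- day 8 cells none of the 10 genes was raised.

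**Figure D3:**
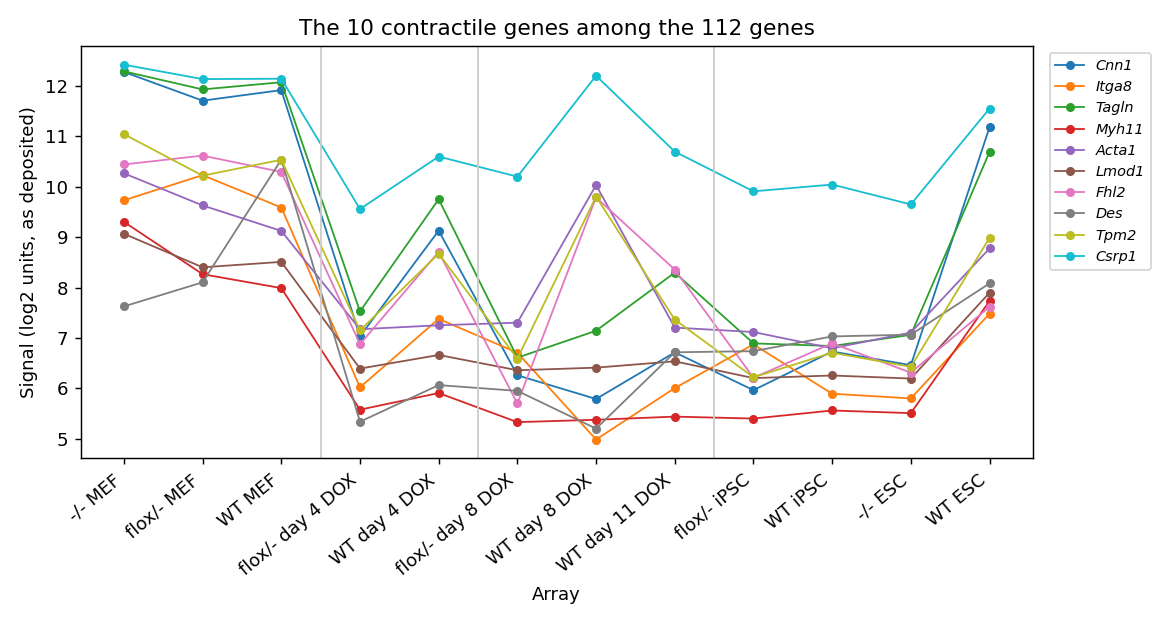
Signal in log2 units of the 10 contractile genes on the 12 arrays in order of stage, 1 line per gene, with grey lines between stages. All 10 drop between MEF and day 4, by the rule; Csrp1, Acta1, Tpm2 and Fhl2 have their highest value after day 4 in WT day 8, and Cnn1 and Tagln in WT ESC.

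Targets of SRF and YAP outside the contractile list gave 2 members of 34 genes kept. Ankrd1, a nuclear and sarcomeric ankyrin-repeat protein, measured 5.21 in flox/- and 6.81 in WT day 4 cells, against 11.09 in -/-, 9.33 in flox/- and 10.09 in WT MEF. Ccn2, the matricellular protein also called CTGF, measured 9.17 in flox/- and 10.48 in WT day 4 cells, against 12.79 in -/-, 12.62 in flox/- and 12.60 in WT MEF. Both were at least 2-fold above the higher day 4 value in WT ESC alone, at 9.26 and 11.90. SRF binds the CArG box, a run of A and T flanked by CC and GG, and TEAD proteins bind GGAATG. Of the 112 members, 82 matched by Entrez gene identifier a RefSeq promoter (250 bases before to 50 after the start). Of these 82 members, 5 held a CArG box (6.1%, against 1.6% of 10340 genes kept with a promoter): Igf2, Acta1, Lmcd1, Fhl2 and Ppbp. GGAATG was in 15 (18.3% against 14.4%), the AP-1 motif TGANTCA in 8 (9.76% against 6.26%) and TATAAA in 20 (24.4% against 9.09%). Both strands were searched, a gene counted if any of its listed promoters matched, the matches printed here do not overlap, and a match is a description of letters, not of binding. The promoters of Acta1 (chr8:123894726-123895025), Fhl2 (chr1:43196712-43197011, 1 of 2 listed) and Ankrd1 (chr19:36119795-36120094), all on the minus strand of GRCm38.p6 in RefSeq, are shown to place these letters. Capitals mark the CArG box, GGAATG or its complement, and TATAAA or its complement.
Acta1: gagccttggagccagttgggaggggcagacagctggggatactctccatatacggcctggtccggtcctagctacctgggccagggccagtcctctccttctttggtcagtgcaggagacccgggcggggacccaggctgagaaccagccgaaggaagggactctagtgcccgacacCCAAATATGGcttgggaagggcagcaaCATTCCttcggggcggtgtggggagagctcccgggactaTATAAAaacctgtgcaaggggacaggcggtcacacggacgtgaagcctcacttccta
Fhl2: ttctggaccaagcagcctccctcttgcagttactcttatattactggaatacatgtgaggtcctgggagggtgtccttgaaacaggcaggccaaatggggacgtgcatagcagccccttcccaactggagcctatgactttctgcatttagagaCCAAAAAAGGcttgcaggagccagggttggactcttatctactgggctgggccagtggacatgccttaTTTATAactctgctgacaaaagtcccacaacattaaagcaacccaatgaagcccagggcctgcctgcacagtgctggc
Ankrd1: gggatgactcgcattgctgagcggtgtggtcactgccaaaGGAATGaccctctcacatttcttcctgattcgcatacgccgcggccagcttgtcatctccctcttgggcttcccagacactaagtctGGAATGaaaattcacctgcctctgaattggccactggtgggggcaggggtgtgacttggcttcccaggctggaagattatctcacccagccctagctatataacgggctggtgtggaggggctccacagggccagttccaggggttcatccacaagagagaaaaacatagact
In Acta1 the CArG box starts 73 bases before the start, in Fhl2 96 bases before it, and Ankrd1 holds 2 copies of GGAATG, which start 210 and 123 bases before it.

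Ligands, latency proteins and inhibitors of the TGF-beta family gave 7 members of 49 genes kept (14.3%). Inhba, the activin A subunit, measured 7.97 in flox/- and 9.63 in WT day 4 cells, against 13.11 in -/-, 12.44 in flox/- and 11.65 in WT MEF. The ligand gene Tgfb3 measured 7.70 in flox/- and 10.17 in WT day 4 cells, against 12.02 in -/-, 11.95 in flox/- and 11.84 in WT MEF. Its relative Tgfb1 measured 7.22 in flox/- and 8.09 in WT day 4 cells, against 9.93 in -/-, 9.94 in flox/- and 9.68 in WT MEF. In all 3 the flox/- day 4 value was below the WT day 4 value, and by the rule no MEF overlapped with day 4. The latency protein gene Ltbp2 measured 7.55 in flox/- and 8.64 in WT day 4 cells, against 11.46 in -/-, 11.27 in flox/- and 10.31 in WT MEF. Here too the flox/- day 4 array was below the WT one. Tgfb3 went on to 5.84 in flox/- day 8, 8.86 in WT day 8 and 8.81 in WT day 11 cells, and to 4.86 in flox/- iPSC, 7.65 in WT iPSC, 6.35 in -/- ESC and 10.002 in WT ESC. It was thus at least 2-fold below the lower day 4 value in flox/- day 8 cells, flox/- iPSC and -/- ESC. It stayed above the array median in the 4 later WT arrays, and lay next to it in -/- ESC.

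The inhibitory SMAD genes Smad6 and Smad7, which act against signalling by receptors of the TGF-beta family, took separate courses. Smad7 measured 6.52 in flox/- and 6.61 in WT day 4 cells, against 9.67 in -/-, 8.42 in flox/- and 8.21 in WT MEF. Its later values were 9.39 in flox/- day 8, 8.68 in WT day 8 and 7.19 in WT day 11 cells, and 9.54 in flox/- iPSC, 8.46 in WT iPSC, 9.45 in -/- ESC and 9.69 in WT ESC. WT day 11 was the only later array where it was less than 2-fold above the higher day 4 value. Smad6 measured 6.09 in flox/- and 6.72 in WT day 4 cells, against 9.37 in -/-, 8.61 in flox/- and 8.41 in WT MEF, then 6.16 in flox/- day 8, 8.35 in WT day 8 and 6.13 in WT day 11 cells, and 6.21 in flox/- iPSC, 6.24 in WT iPSC, 6.06 in -/- ESC and 6.95 in WT ESC. Smad6 was thus raised in WT day 8 cells alone. The activin-binding gene Fstl3 was at 8.25 in flox/- and 8.23 in WT day 4 cells, against 9.97, 9.93 and 9.86 in -/-, flox/- and WT MEF.

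Growth factors and their receptors gave 7 members of 66 genes kept. Fgf7, a mesenchymal factor that acts on epithelial cells, measured 5.93 in flox/- and 8.19 in WT day 4 cells, against 10.93 in -/-, 10.86 in flox/- and 11.03 in WT MEF. Later it gave 4.84 in flox/- day 8, 4.78 in WT day 8 and 7.82 in WT day 11 cells, and 4.89 in flox/- iPSC, 7.15 in WT iPSC, 5.54 in -/- ESC and 6.21 in WT ESC, so flox/- day 8, WT day 8 and flox/- iPSC were at least 2-fold below the lower day 4 value. Fgf2 measured 6.35 in flox/- and 7.17 in WT day 4 cells, against 10.17 in -/-, 9.43 in flox/- and 9.23 in WT MEF, and stayed low. All MEF values of both FGF genes lay above both day 4 values, by the rule. Flt1, a receptor for VEGF, measured 6.62 in flox/- and 6.44 in WT day 4 cells, against 9.81 in -/-, 9.11 in flox/- and 9.05 in WT MEF, and was at 8.17 in WT day 8 cells. The imprinted growth factor gene Igf2 measured 10.41 in flox/- and 10.43 in WT day 4 cells, against 12.53 in -/-, 12.55 in flox/- and 12.92 in WT MEF, and reached 12.31 in WT day 11 cells, against 10.77 in flox/- day 8 and 10.06 in WT day 8 cells. Flt1 was raised in WT day 8 cells alone and Igf2 in WT day 11 cells alone. Igfbp6, which binds IGF2, was at 5.89 in flox/- day 8 and 10.13 in WT day 8 cells, the second above all 3 MEF. Pdgfd, a PDGF receptor ligand, stayed low.

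Wnt modulators gave 3 members of 50 genes kept. Dkk2, a secreted ligand of the LRP co-receptors, measured 5.65 in flox/- and 6.26 in WT day 4 cells, against 9.85 in -/-, 10.07 in flox/- and 9.41 in WT MEF. Its later values were 5.80 in flox/- day 8, 8.33 in WT day 8 and 8.12 in WT day 11 cells, and 5.58 in flox/- iPSC, 6.62 in WT iPSC, 5.84 in -/- ESC and 6.33 in WT ESC. WT day 8 and WT day 11 cells were at least 2-fold above the higher day 4 value, whereas flox/- day 8 cells and all pluripotent arrays were not. Rspo2, which strengthens Wnt signals through LGR receptors, measured 6.12 in flox/- and 7.24 in WT day 4 cells, against 9.48 in -/-, 10.30 in flox/- and 10.68 in WT MEF, and its later values ran between 4.90 in flox/- iPSC and 5.53 in WT day 11 cells. The secreted Wnt antagonist gene Frzb was at 5.12 in flox/- and 4.59 in WT day 4 cells, against 7.20, 7.29 and 6.90 in -/-, flox/- and WT MEF.

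Matrix genes among the members were 2 of 33 collagens, 4 of 50 glycoproteins, 4 of 28 proteoglycans and 5 of 54 matrix enzymes. Col10a1, the collagen of hypertrophic cartilage, measured 7.28 in flox/- and 8.41 in WT day 4 cells, against 12.40 in -/-, 12.69 in flox/- and 10.05 in WT MEF. Svep1, a large adhesive matrix protein, measured 7.71 in flox/- and 10.09 in WT day 4 cells, against 12.26 in -/-, 12.26 in flox/- and 11.70 in WT MEF. Elastin (Eln) measured 6.59 in flox/- and 6.93 in WT day 4 cells, against 8.48 in -/-, 10.15 in flox/- and 9.95 in WT MEF. For Col10a1 WT MEF was the lowest of the 3 MEF, and for elastin it was -/- MEF. Adamts5, a protease that cleaves aggrecan and versican, measured 8.02 in flox/- and 10.38 in WT day 4 cells, against 11.91 in -/-, 11.98 in flox/- and 12.19 in WT MEF. It then gave 5.33 in flox/- day 8, 5.71 in WT day 8 and 9.46 in WT day 11 cells, and 5.50 in flox/- iPSC, 8.58 in WT iPSC, 8.16 in -/- ESC and 9.26 in WT ESC, a spread of more than 4 units among arrays after day 4. The protease genes Plau (urokinase), Pappa and Mmp19, the glycoprotein genes Mfap5 and Ltbp2, and Col8a1 and Adamtsl3 stayed low.

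The proteoglycan genes differed among themselves. Cspg4, the NG2 antigen of pericytes and progenitors, measured 6.88 in flox/- and 7.61 in WT day 4 cells, against 10.45 in -/-, 10.45 in flox/- and 9.92 in WT MEF. It was at 6.27 in flox/- day 8, 10.41 in WT day 8 and 6.72 in WT day 11 cells, and only the WT day 8 value came within the range of MEF. Prg4, the joint lubricant lubricin, measured 5.24 in flox/- and 5.27 in WT day 4 cells, against 10.39 in -/-, 9.68 in flox/- and 7.50 in WT MEF, and was at 6.98 in WT day 11 cells, 6.37 in WT iPSC, 6.40 in -/- ESC and 7.84 in WT ESC. Gpc3, an X-linked glypican, and Podn stayed low.

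Adhesion and guidance receptors gave 5 of 58 and 2 of 46 genes kept. The collagen-binding integrin gene Itga1 measured 5.12 in flox/- and 7.24 in WT day 4 cells, against 9.53 in -/-, 9.64 in flox/- and 9.62 in WT MEF. The adhesion genes Pcdh9 (a protocadherin), Alcam and Cd248, a marker of stromal cells, likewise stayed low. Unc5b, a receptor for netrin, measured 6.98 in flox/- and 7.47 in WT day 4 cells, against 11.03 in -/-, 10.31 in flox/- and 9.90 in WT MEF, and was at 8.91 in WT day 8 cells and 8.58 in WT ESC. The related receptor gene Unc5c stayed low, at 5.51 to 6.06 in the iPSC. The list of cytokines, chemokines and their receptors gave the chemokine genes Cxcl12, Ccl2 and Cx3cl1, 3 of 47 genes kept, and these stayed low. The chemokine gene Ppbp, a member outside that list, was raised in WT ESC, at 7.92. Cxcl12, the stromal ligand of CXCR4, measured 7.45 in flox/- and 8.85 in WT day 4 cells, against 10.52 in -/-, 10.86 in flox/- and 11.40 in WT MEF, and went to 5.65 in flox/- and 5.40 in WT day 8 cells.

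Transcription factors of mesenchyme gave 5 members of 107 genes kept (4.67%). Foxp2, a forkhead factor, measured 5.83 in flox/- and 6.95 in WT day 4 cells, against 9.23 in -/-, 9.51 in flox/- and 9.30 in WT MEF. Sox9, the regulator of cartilage, measured 7.16 in flox/- and 7.68 in WT day 4 cells, against 9.62 in -/-, 9.51 in flox/- and 9.42 in WT MEF. Snai1, a repressor of Cdh1 and driver of the mesenchymal state, measured 8.16 in flox/- and 8.92 in WT day 4 cells, against 11.06 in -/-, 10.58 in flox/- and 10.51 in WT MEF. In each of these the flox/- day 4 value was below the WT day 4 value. The limb factor gene Tbx5 measured 4.88 in flox/- and 5.97 in WT day 4 cells, against 8.25 in -/-, 8.05 in flox/- and 7.49 in WT MEF. These 4 genes stayed low, whereas Lhx9 was at 6.87 in WT day 8 cells, against 5.60 in flox/- and 5.84 in WT day 4 cells. 0 of 33 Hox genes were members.

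Signalling regulators and receptors gave 6 members of 62 genes kept. Prkg1, the cGMP-dependent kinase that relaxes smooth muscle, measured 5.92 in flox/- and 7.53 in WT day 4 cells, against 9.87 in -/-, 10.06 in flox/- and 9.89 in WT MEF. The orphan receptor gene Gpr176 measured 6.86 in flox/- and 8.18 in WT day 4 cells, against 11.14 in -/-, 10.65 in flox/- and 10.36 in WT MEF. The thrombin receptor gene F2r measured 8.50 in flox/- and 10.03 in WT day 4 cells, against 12.28 in -/-, 11.78 in flox/- and 11.53 in WT MEF. These 3 genes differed from each other in level but all stayed low. Spry1, a feedback inhibitor of receptor tyrosine kinases, was at 8.73 in WT day 11 cells, against 7.17 in flox/- and 7.55 in WT day 4 cells. The vasodilator peptide gene Adm and the gene of its receptor component Calcrl were both members. Adm measured 7.28 in flox/- and 8.28 in WT day 4 cells, against 10.60 in -/-, 9.93 in flox/- and 10.03 in WT MEF. Calcrl measured 5.94 in flox/- and 6.67 in WT day 4 cells, against 8.32 in -/-, 9.10 in flox/- and 8.44 in WT MEF. In flox/- day 8 cells both were at least 2-fold below the lower day 4 value, at 5.41 and 4.43.

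In all, 63 of the 112 members were on at least 1 of 27 lists and 49 on none. Among the 49 were transporter and channel genes, such as the urea transporter gene Slc14a1, the bicarbonate transporter gene Slc4a4, the choline transporter gene Slc5a7 and the sodium-calcium exchanger gene Slc8a1. Slc14a1 measured 4.99 in flox/- and 4.96 in WT day 4 cells, against 8.91 in -/-, 9.25 in flox/- and 7.53 in WT MEF, and lay between 4.87 in flox/- iPSC and 5.05 in WT ESC on the later arrays. Further cytoskeletal genes outside the lists were the LIM-domain genes Fhl5, Lmcd1 and Lims2, the Cdc42 effector genes Cdc42ep1 and Cdc42ep3, and Pgm5, a protein of cell-matrix junctions, which measured 4.81 in flox/- and 6.33 in WT day 4 cells, against 8.63 in -/-, 9.73 in flox/- and 9.68 in WT MEF. The adaptor gene Sorbs2 measured 5.56 in flox/- and 7.30 in WT day 4 cells, against 9.63 in -/-, 9.83 in flox/- and 9.99 in WT MEF. Members not described so far are named here, some after their values were seen, so that the set is complete. P2ry10b, a G-protein coupled receptor gene, measured 4.12 in flox/- and 5.28 in WT day 4 cells, against 7.90 in -/-, 8.18 in flox/- and 7.84 in WT MEF. The glycosyltransferase gene Gcnt4 measured 5.81 in flox/- and 6.65 in WT day 4 cells, against 9.14 in -/-, 9.12 in flox/- and 9.74 in WT MEF. Tmem119, a membrane protein of osteoblasts and microglia, measured 6.37 in flox/- and 8.06 in WT day 4 cells, against 10.58 in -/-, 10.27 in flox/- and 10.08 in WT MEF. In all 3 the day 4 values lay below all MEF, by the rule, and in all 3 the flox/- day 4 value was the lower. P2ry10b lay at 4.11 to 4.64 on the later arrays, below WT day 4 on each, while Tmem119 was at 5.65 in flox/- day 8 and 8.52 in WT day 8 cells. Further genes that stayed low were the transcription regulators Atoh8 and Nab2, the exchange factor gene Rasgrp3, the glycosyltransferase gene Galnt18, the ubiquitin ligase gene Mylip, the myosin gene Myo1d, the phosphatase gene Ptprq, the GABA receptor subunit gene Gabrb1, the chloride channel regulator gene Clca3a1, and Lrrc15, Oaf and Sncaip. Of these Atoh8 came nearest to being raised, at 7.36 in WT ESC against 6.41 in WT day 4 cells, and Myo1d was next, at 9.63 in WT day 8 cells against 8.74 in WT day 4 cells.

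Members lay on 20 chromosomes, with at most 10 on any.

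Of the 112 genes, 71 stayed low (background 83.1%) and 41 were raised on at least 1 of the 7 later arrays (background 16.9%). The rule picked members for low day 4 values, which it did not do for the background genes. The count was 4 in flox/- day 8 cells (background 6.09%), 25 in WT day 8 cells (7.32%) and 9 in WT day 11 cells (3.14%). In pluripotent cells it was 4 in flox/- iPSC (5.95%), 4 in WT iPSC (5.44%), 7 in -/- ESC (5.59%) and 16 in WT ESC (5.47%). As shares of the members these are 22.3% in WT day 8 and 14.3% in WT ESC, against 3.57% to 8.04% on the other 5 arrays. In both WT day 8 and WT ESC, the 2 arrays of the earlier series, 6 members were raised (background 0.774%). The higher day 4 value was the WT one for 103 of the 112 members, so these counts hold flox/- arrays to a WT level.

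**Figure D4:**
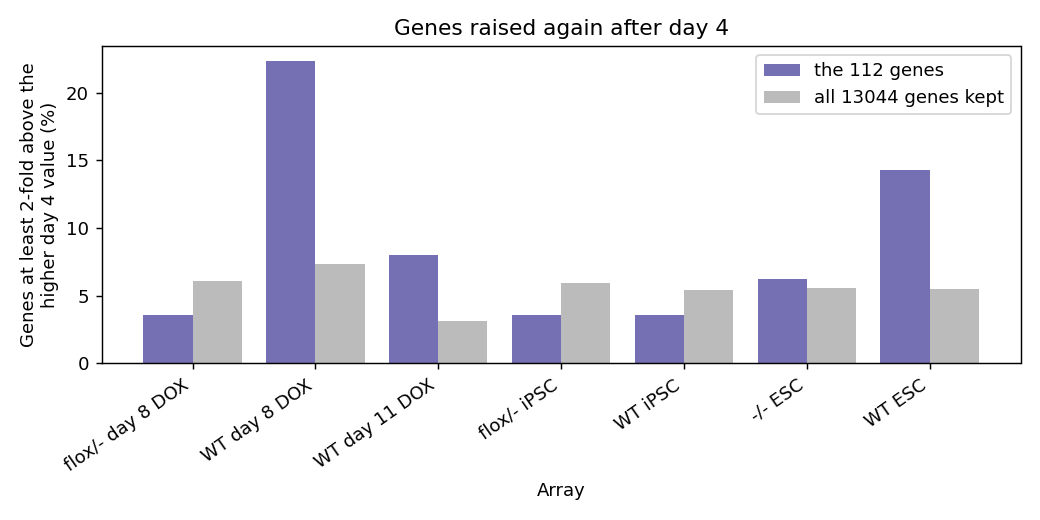
Share of genes, in percent, at least 2-fold above the higher day 4 value on each of the 7 arrays after day 4, for the 112 genes (purple) and all 13044 genes kept (grey). The members' share was 22.3% in WT day 8, 14.3% in WT ESC, 8.04% in WT day 11, and between 3.57% and 6.25% in flox/- day 8, both iPSC and -/- ESC.

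In WT day 8 cells the genes furthest above the higher day 4 value were Sgms2, a sphingomyelin synthase gene (2.96 units), Igfbp6 (2.94), Cspg4 (2.81), Acta1 (2.78), the small muscle protein gene Mustn1 (2.76), the matrix protein gene Tinagl1 (2.73), Hbegf, an EGF receptor ligand (2.60), Nectin2 (2.32), and Fxyd5, a regulator of the sodium pump (2.26). Raised in WT day 8 cells alone were Flt1, Cspg4, Igfbp6, Mustn1, Smad6, Fhl2, Lhx9, Tpm2, Csrp1 and Fxyd5, the retinol dehydrogenase gene Dhrs9, the Cdc42 effector gene Cdc42ep3, Ldlrad4, an inhibitor of TGF-beta signalling, the magnesium transporter gene Nipal1, and Glt28d2 and Fam160a1. Sgms2 measured 5.51 in flox/- and 6.09 in WT day 4 cells, against 8.25 in -/-, 8.23 in flox/- and 8.32 in WT MEF, then 5.51 in flox/- day 8, 9.05 in WT day 8 and 6.12 in WT day 11 cells, and 6.02 in flox/- iPSC, 5.79 in WT iPSC, 7.78 in -/- ESC and 6.08 in WT ESC. It was raised in WT day 8 cells and -/- ESC. Hbegf measured 6.94 in flox/- and 7.52 in WT day 4 cells, against 10.04 in -/-, 9.55 in flox/- and 9.13 in WT MEF, then 8.32 in flox/- day 8, 10.12 in WT day 8 and 8.75 in WT day 11 cells, and 8.96 in flox/- iPSC, 8.90 in WT iPSC, 8.30 in -/- ESC and 9.09 in WT ESC. It was raised on 5 of the 7 later arrays, the exceptions being flox/- day 8 and -/- ESC. Fxyd5 measured 8.72 in flox/- day 8 and 12.84 in WT day 8 cells, against 12.09 to 12.47 in MEF. At or above their lowest MEF value were 1 member in flox/- day 8 (background 59.0%), 12 in WT day 8 (64.1%) and 2 in WT day 11 cells (60.0%). In pluripotent cells there were 3 in flox/- iPSC (59.3%), 1 in WT iPSC (58.3%), 2 in -/- ESC (58.1%) and 5 in WT ESC (60.4%). The rule chose members for a lowest MEF value at least 1.5 log2 units above day 4. Nothing is therefore read from their distance to the background, which was not chosen so. The same WT day 8 array had the highest mean of 12 keratinocyte markers, 8.29, against 5.50 to 6.54 on the other 11, with 6 of them above the array median. Its 20 epithelial markers averaged 10.06 and its pluripotency markers 6.47. The part of these other cell types in the result was not tested.

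In WT ESC the 16 genes were Rgs4, Cnn1, Ankrd1, Ccn2, Myh11, Inhba, Lmod1, Des, the platelet chemokine gene Ppbp, Unc5b, Acta1, Prg4, Hbegf, Nectin2, Smad7 and Cited2, and the first 9 of these were above the threshold on no other later array. Inhba was at 5.83 in flox/- iPSC, 9.04 in WT iPSC, 7.65 in -/- ESC and 10.96 in WT ESC. In -/- ESC alone, Aldh1l2, a mitochondrial folate enzyme gene, was raised, at 8.85 against 6.82 in WT ESC, and so was Nell2, a secreted neural protein gene, at 7.63 against 5.66. Acta2, the smooth muscle actin gene and not a member, was at 12.65 in WT ESC, against 9.34 to 9.82 in the other pluripotent arrays. The fibroblast markers averaged 7.22 in flox/- iPSC, 9.13 in WT iPSC, 8.11 in -/- ESC and 8.60 in WT ESC. Above the array median were 11 of these 19 in flox/- iPSC, 18 in WT iPSC, 13 in -/- ESC and 16 in WT ESC. Single markers did not all follow the mean: Col1a1 was at 7.67 in flox/- iPSC, 9.69 in WT iPSC, 8.54 in -/- ESC and 10.50 in WT ESC. The part of feeder cells in these values was not tested.

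Set against the day 4 array of its own genotype, WT day 11 had 10 members at least 2-fold higher (background 5.70%) and 25 at least 2-fold lower (5.51%). The day 4 arrays entered the rule, so nothing is read from the distance of these counts to the background. Gjb2, the gap junction protein connexin 26, measured 5.80 in flox/- and 6.47 in WT day 4 cells, against 10.37 in -/-, 9.81 in flox/- and 9.38 in WT MEF. It then gave 8.58 in flox/- day 8, 5.38 in WT day 8 and 11.56 in WT day 11 cells, and 6.02 in flox/- iPSC, 6.30 in WT iPSC, 7.39 in -/- ESC and 5.63 in WT ESC, so that WT day 11 was above every MEF. Igf2, Spry1 and the cation channel gene Trpv2 were raised in WT day 11 cells alone. The imprinted gene Dlk1, a transmembrane inhibitor of differentiation, measured 9.01 in flox/- and 8.22 in WT day 4 cells, against 11.85 in -/-, 11.78 in flox/- and 12.06 in WT MEF, and was at 9.43 in WT day 11 cells, against 7.16 in flox/- day 8 and 7.54 in WT day 8 cells.

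Of the members, 2 genes were back in all 4 pluripotent arrays, Smad7 and Nectin2 (background 2.48%), and Cited2, Hbegf and Prg4 were each raised in 3 of them. Nectin2, a cell adhesion protein of adherens junctions, measured 6.79 in flox/- and 6.89 in WT day 4 cells, against 9.13 in -/-, 8.48 in flox/- and 8.51 in WT MEF. Its later values were 8.11 in flox/- day 8, 9.21 in WT day 8 and 8.52 in WT day 11 cells, and 8.50 in flox/- iPSC, 8.25 in WT iPSC, 8.46 in -/- ESC and 8.26 in WT ESC, and all 7 were at least 2-fold above the higher day 4 value. Cited2, a co-activator that competes with HIF1 for CBP and p300, measured 8.96 in flox/- and 9.38 in WT day 4 cells, against 11.55 in -/-, 11.03 in flox/- and 11.50 in WT MEF, and was at 11.31 in flox/- iPSC, 10.24 in WT iPSC, 10.86 in -/- ESC and 11.43 in WT ESC. The promoter of Nectin2 (chr7:19749524-19749823, minus strand, GRCm38.p6, RefSeq) is shown as that of a gene that came back; it held none of the 4 motifs, so no letter is in capitals.
Nectin2: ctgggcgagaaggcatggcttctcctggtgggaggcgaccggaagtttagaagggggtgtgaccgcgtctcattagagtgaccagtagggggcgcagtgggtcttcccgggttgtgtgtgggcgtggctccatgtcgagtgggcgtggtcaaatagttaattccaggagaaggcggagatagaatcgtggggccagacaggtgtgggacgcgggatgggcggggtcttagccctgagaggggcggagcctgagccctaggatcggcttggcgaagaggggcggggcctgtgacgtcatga
A further 22 genes were raised in a later DOX array but in no pluripotent array (background 7.38%), and 17 in some but not all pluripotent arrays (7.04%). Without WT day 8 the group of 22 shrank to 6, and without WT ESC the group of 17 to 6.

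Some of the genes were lower still after day 4. In flox/- day 8 cells 21 members were at least 2-fold below the lower day 4 value (background 7.17%), in WT day 8 cells 11 (4.11%) and in WT day 11 cells 0 (0.989%). In pluripotent cells the counts were 19 in flox/- iPSC (6.78%), 1 in WT iPSC (4.61%), 7 in -/- ESC (6.41%) and 1 in WT ESC (4.30%). Set against the day 4 array of the same genotype, the median change at day 8 was -0.22 in flox/- and -0.40 in WT cells, and 21 genes in flox/- (background 10.9%) and 41 in WT cells (9.81%) were at least 2-fold lower. At least 2-fold higher were 7 genes in flox/- (7.99%) and 25 in WT cells (10.6%). The rule chose members by their day 4 values, so nothing is read from the distance of these counts to the background.

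**Figure D5:**
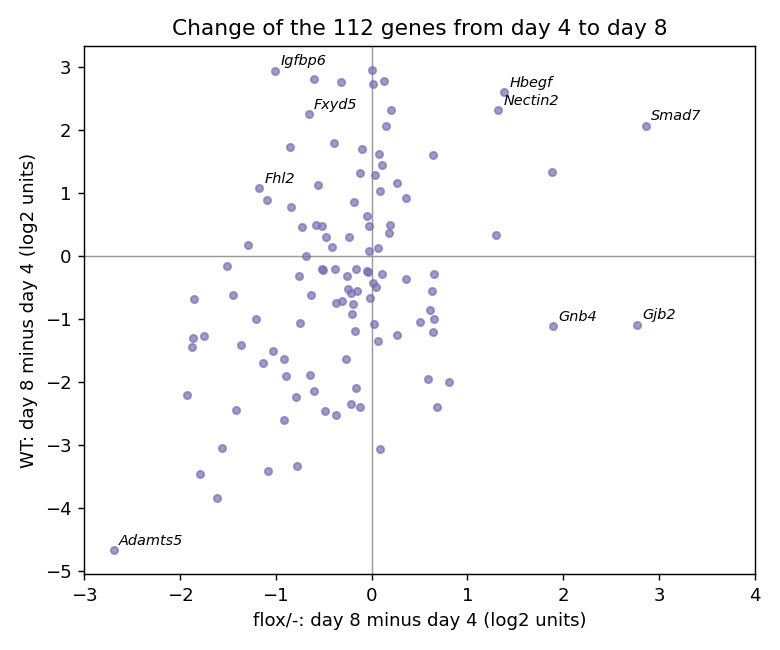
Change of each of the 112 genes from day 4 to day 8 in log2 units, in flox/- cells (x axis) and in WT cells (y axis), 1 point per gene with 1 array for each genotype and day. WT values run further from 0 in both directions, with Adamts5 lowest in both genotypes, Igfbp6 higher in WT and lower in flox/-, and Gjb2 and the G-protein subunit gene Gnb4 the reverse.

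Arrays that the rule did not use allowed 2 tests. The first compared the 4 pluripotent arrays with the 3 later DOX arrays, to ask whether the genes differ between established lines and cells still under DOX. limma called 0 of the 112 members and 0 of 13044 genes (0%) at an adjusted p under 0.05, with a lowest adjusted p of 0.0654 by limma over all genes, while 4 members had an unadjusted p under 0.05 (background 7.15%). The members' median difference, pluripotent minus later DOX, was -0.06, against 0.00 over all genes. In pluripotent cells 62 of 112 were lower, where 50.4% of all genes were. Single arrays moved these values: the median was -0.32 without flox/- day 8, -0.23 without WT ESC and 0.06 without WT day 11, which left 50 genes lower, so no direction is read from it. Without flox/- day 8, 17 members had an unadjusted p under 0.05, where the background rose to 23.6%. Serpinb6b, a serine protease inhibitor gene chosen here after its p was seen, had the lowest p among members. It measured 5.38 in flox/- iPSC, 5.44 in WT iPSC, 5.88 in -/- ESC and 5.75 in WT ESC, against 6.63 in flox/- day 8, 6.88 in WT day 8 and 6.82 in WT day 11 cells. All pluripotent arrays lay below all later DOX arrays (difference -1.16 ± 0.17 SE, limma adjusted p = 0.58). Tinagl1 (-2.13 ± 0.80 SE, adjusted p = 0.627) and Igf2 (-1.35 ± 0.54 SE, adjusted p = 0.627) had negative differences and Des a positive one (1.27 ± 0.44 SE, adjusted p = 0.627), and none of them passed the limma test. Without WT day 11 the difference of Igf2 was -0.72, and without WT day 8 that of Tinagl1 was -1.35. With no label on separate cultures, these p-values measure the spread between arrays of a state, which holds genotype and day.

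The second test compared flox/- with WT at day 8 and in iPSC, with stage as a block. It left 1 residual degree of freedom per gene, so limma took much of each SE from the spread of all genes. An SE near 0.30 is thus not a measured spread of that gene, and each genotype and stage has 1 array. This test too called 0 members and 0 genes of all (0%, lowest limma adjusted p = 0.814), with 14 members at an unadjusted p under 0.05 (background 3.65%). Of these, 13 were lower and 1, Itga8, was higher in flox/- cells. The median difference over members, flox/- minus WT, was -0.45, against -0.02 over all genes, and 90 of 112 were negative, where 51.8% of all genes were. Tgfb3 had the lowest p among members. It measured 5.84 in flox/- day 8 cells and 4.86 in flox/- iPSC, against 8.86 in WT day 8 cells and 7.65 in WT iPSC (-2.91 ± 0.31 SE, limma adjusted p = 0.814). The chemokine gene Ccl2 differed by -2.29 ± 0.31 SE (limma adjusted p = 0.814), and Col8a1 by -1.91 ± 0.30 SE (limma adjusted p = 0.814). Fibroblast markers averaged 7.12 in flox/- day 8 cells and 7.22 in flox/- iPSC, against 8.76 in WT day 8 cells and 9.13 in WT iPSC, and their part in these differences was not tested. At day 8 alone, 45 members were at least 2-fold lower in flox/- than in WT cells (background 18%) and 7 at least 2-fold higher (13.6%), led by Igfbp6 (-4.24), Mustn1 (-4.24), Cspg4 (-4.14), Fxyd5 (-4.12) and Fhl2 (-4.08) on the lower side. All 5 were raised in WT day 8 cells alone. In the same arrays keratinocyte markers averaged 6.02 in flox/- and 8.29 in WT day 8 cells, epithelial markers 8.66 in flox/- and 10.06 in WT, and pluripotency markers 11.04 in flox/- and 6.47 in WT. The part of these, and of the earlier series of the WT day 8 array, was not tested.

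MEF of different genotype differed for some members before DOX. Against WT MEF, 17 members were at least 2-fold higher in -/- MEF (background 2.93%) and 5 at least 2-fold lower (4.29%). In flox/- MEF, 9 were at least 2-fold higher (2.16%) and 2 lower (1.92%). All MEF arrays entered the rule, which did not choose the background genes, so nothing further is read from these counts. Ppbp was at 11.00 in -/- and 8.30 in flox/- MEF, against 7.27 in WT MEF, and Lhx9 at 10.05 and 9.75, against 7.42. Prg4 and Col10a1 were likewise higher in both mutant MEF, while Des ran the other way, at 7.63 in -/- and 8.10 in flox/- MEF, against 10.54 in WT MEF. WT MEF thus set the lowest MEF value of Ppbp, Lhx9, Prg4 and Col10a1, and without the WT MEF array 233 genes met the rule. At the threshold of 1.5, Vasn (1.508), F2r (1.507), Fxyd5 (1.504), Msrb3 (1.503) and Papss2 (1.501) were just inside, and Aff3 (1.498), Tnfaip2 (1.496), Cox4i2 (1.486), Ccdc68 (1.486) and Pcp4l1 (1.484) just outside.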

How the data were processed

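The authors deposited log2 signals of 35512 probe sets on 12 arrays, from 3.11 to 13.99; per the labels, RNA was extracted with TRIzol and labelled with biotin. The methods of summary and normalization are not given in the sources used here. Array medians ran from 6.26 to 6.38, and the deposited log2 values were used as they are because the rule is set on them, with quantile normalization as an alternative; 0 columns were left out. Of the probe sets, 21789 had a single symbol and 1621 several, and the rest, not listed, were left out with the latter. These gave 19938 genes. For 999 genes with several probe sets, 3 of them members, the one with the highest mean was taken. All 112 members matched the RefSeq table of GRCm38.p6. Genes above the array median on at least 1 array were kept (13044).

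Tests used limma 3.58.1 in R 4.3.3 with Benjamini-Hochberg adjustment over all genes kept, and the fit was tested on simulated data. Arrays of one state and different genotype or day stood as replicates, and no label says whether arrays came from separate cultures. Alternatives were the normalization, the filter, the probe sets, array weights, thresholds and leaving out arrays. The members and lists were chosen with earlier results of these data known. Named genes were the 30 with the widest gap, the leading members of each list, and those furthest above day 4 later, furthest apart between flox/- and WT at day 8, or nearest the threshold; others are named where a count or a p singled them out after values were seen, as were the promoters of Rgs4 and Ankrd1. Array intensities have no sequencing depth, and the number of arrays limits the precision.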

Additional observations from a re-analysis of the deposited data

Results flagged for a closer look

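Among the 4 pluripotent arrays 1 array stood apart from the other 3 for 15 of the 112 genes, by Dixon's test at the 95% level, which marks about 1 in 20 groups by chance. Such an array was found for 13.4% of the members, against 5.84% of all genes kept. In 13 of the 15 it was the WT ESC array, always on the high side; that was so for 11.6% of the members and 1.72% of all genes kept. WT ESC measured 11.18 for Cnn1 (against 5.97 to 6.73 in the other pluripotent arrays), 10.69 for Tagln (6.84 to 7.06), 7.73 for Myh11 (5.40 to 5.56), 8.78 for Acta1 and 7.90 for Lmod1. It measured 8.77 for Col10a1, 7.92 for Ppbp, 7.36 for the transcription factor gene Atoh8, 6.95 for Plau, 6.83 for Sorbs2, 6.55 for Cdc42ep1, 6.30 for Lmcd1 and 5.10 for Rasgrp3. The -/- ESC array stood apart for Sgms2 (7.78) and the WT iPSC array for Lrrc15 (8.50).

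Between day 4 and day 8, 4 genes moved by at least 2-fold in opposite directions in the 2 genotypes, a difference that was not tested, as each genotype and day has 1 array. The 4 are 3.57% of the members, close to the 3.22% of all genes kept that moved so. Gjb2 moved by 2.77 units in flox/- and by -1.09 in WT cells, and Gnb4, a G-protein subunit gene, by 1.90 and -1.11. Igfbp6 moved by -1.005 in flox/- and by 2.94 in WT cells, and Fhl2 by -1.18 and 1.08.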

How the results depend on the processing

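No paired analysis was possible because the labels give no replicate numbers, beyond the block by stage that sets flox/- against WT arrays in the genotype test. The genotype test called 0 genes under all its alternatives. The alternative with 8 arrays of 4 stages took in MEF and day 4 arrays that the rule used, so nothing is read from its members. The comparison of pluripotent with later DOX arrays called 0 genes under 9 of 13 alternatives, 1 (not a member) without both arrays of the earlier series, and between 0 and 94 genes with each array left out in turn (94 without flox/- day 8, 1 without WT day 8), with 0 members called each time. With array weights, whose estimation stopped before it converged, it called 4392 genes (33.7%), 35 of them members, Serpinb6b, Igf2 and Tinagl1 among these; the cause was not tested. Under the rule itself, a threshold of 1.0 gave 335 genes and 2.0 gave 40, quantile normalization 105, of which 100 were shared, and leaving out each array in turn 131 to 762 genes (233 without WT MEF, 175 without -/- MEF, 762 without WT day 4), since fewer arrays make the rule easier to meet. Against the mean of the day 4 values, 26 genes in place of 16 were raised in WT ESC. Of the 40 genes over a threshold of 2.0, the raised were 1 at flox/- day 8, 7 at WT day 8, 5 at WT day 11, 0 in flox/- iPSC, 1 in WT iPSC, 3 in -/- ESC and 8 in WT ESC. With raised taken as 4-fold, 12 genes were raised in late DOX alone, 8 in some pluripotent arrays and 0 in all; with 1.5-fold, 5 were raised in all. With WT day 8, -/- ESC or WT ESC left out, 6 to 24 genes were raised in late DOX alone (6 without WT day 8) and 6 to 17 in some pluripotent arrays (6 without WT ESC); without both arrays of the earlier series, 6 and 6. Leaving out WT ESC, alone or with WT day 8, and the threshold of 2.0 for raised genes were chosen after seeing the data. With both ESC arrays added, so that mutated cells are set against WT on 6 arrays, 26 members in place of 14 had an unadjusted p under 0.05. The background rose as well, from 3.65% to 6.8% of all genes kept.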
